A study of Mus musculus with 9 samples.

Results

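The transcripts of 9 genes that bind the Fc part of immunoglobulins or carry their signal were followed in fetal liver macrophages that did or did not carry a Cre allele directed against Xpr1, the phosphate exporter of the cell. The genes were taken by symbol, as the rows of the deposited table whose Ensembl identifiers map to Fcgr1, Fcgr3, Fcgr4, Fcgr2b, Fcgrt, Fcer1g, Tyrobp, Trem2 and Syk, a rule that uses no measured value. The 9 symbols themselves were chosen with earlier results of these data known. All 9 had a row among the 13708 genes of the table, and all 9 passed the filter on low values that left 13594 genes to be tested. The samples were CD45+ F4/80hi CD11blow cells sorted from livers of E15.5 mouse embryos, without separating Tim4hi from Tim4lo cells, and both groups were homozygous for an Xpr1 allele whose second exon is flanked by loxP sites. The 5 Mrc1Cre Xpr1fl/fl samples (Cre-ff) carried in addition Cre inserted into the Mrc1 locus, and the 4 Xpr1fl/fl controls (ff) did not. Mrc1 encodes CD206, a mannose receptor of differentiated macrophages and of sinusoidal endothelium, so that Cre is also active in the endothelium of these livers. RNA was read by bulk sequencing of poly(A) libraries, and values are the authors' normalized counts. In such bulk samples fewer cells of a type and less RNA per cell cannot be told apart.

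Fc gamma receptors bind IgG on the macrophage surface. The activating receptors, products of Fcgr1, Fcgr3 and Fcgr4 in the mouse, have no signalling motif of their own and rely on the adaptor chain encoded by Fcer1g, whose tail holds an immunoreceptor tyrosine-based activation motif (ITAM). Src-family kinases phosphorylate the paired tyrosines of an ITAM, and the kinase Syk docks there and starts phagocytosis and cytokine release. Fcgr2b, the only inhibitory IgG receptor of the mouse, carries the opposing motif (ITIM), which recruits lipid and protein phosphatases. Tyrobp (DAP12) is the other ITAM adaptor of myeloid cells and serves Trem2, a receptor for lipids and apoptotic cells, while Fcgrt encodes the heavy chain of the neonatal receptor that recycles IgG and albumin inside the cell.

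The motifs of the adaptors and of Fcgr2b were read from the coding sequences of the canonical transcripts in GENCODE M39, on the GRCm39 build that the study also used. A search of the 9 translated coding sequences for 2 tyrosines in ITAM spacing found 1 match in Fcer1g, 1 in Tyrobp and none in the other 7. The shorter ITIM pattern, searched over whole proteins and not only their tails, matched once in Fcgr2b but also 3 times in Fcgr1 and once each in Fcgr4, Fcgrt, Fcer1g and Tyrobp, so that it does not by itself mark an inhibitory receptor. The coding stretches are given 5′ to 3′ with the tyrosine codons in capitals, together with that of the known ITIM tyrosine of Fcgr2b, because these are the motifs that the background above refers to.
Fcer1g ITAM, minus strand, chr1:171057449-171057650, joined over 2 exons: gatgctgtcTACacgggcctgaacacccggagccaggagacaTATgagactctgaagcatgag
Tyrobp ITAM, plus strand, chr7:30115086-30116816, joined over 2 exons: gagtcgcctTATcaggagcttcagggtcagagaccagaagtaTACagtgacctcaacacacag
Fcgr2b ITIM, minus strand, chr1:170788631-170788666, within 1 exon: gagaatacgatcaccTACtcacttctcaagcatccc
Both ITAMs spanned 15 codons from the first tyrosine to the last residue of the motif, with the tyrosines at codons 65 and 76 of Fcer1g and at codons 92 and 103 of Tyrobp.

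The normalized counts summed to between 27987204 and 28309443 in the Cre-ff samples and between 26942921 and 28291555 in the ff samples. These sums were taken after the authors' normalization and do not show how alike the libraries were in depth. Xpr1, the targeted gene, was detected at 1174, 1187, 1074, 1285 and 1091 normalized counts in Cre-ff samples 1 to 5 and at 1781, 1859.6, 2239 and 2047 in ff samples 1 to 4. No Cre-ff value reached the lowest ff value, and the log2 difference was -0.77 ± 0.08 (SE) (limma, adjusted p = 4.13e-05). Counts per gene include transcripts that lack the floxed exon. Dates in the column names fell on 3 days: the first was shared by Cre-ff sample 5 and ff samples 1 to 3, the second held ff sample 4 and the third held Cre-ff samples 1 to 4, so that most of the genotype contrast also runs between dates. All 14 macrophage markers had a row, and Adgre1, the gene of the F4/80 antigen used in the sort, lay between 45074 and 48554 in Cre-ff and between 42250 and 52419 in ff.

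Of the 9 genes, 2 rose and 3 fell in Cre-ff macrophages at an adjusted p under 0.05, and the groups of these 5 genes did not overlap. Fcgr4 and Syk rose, Fcgrt, Trem2 and Fcgr3 fell, and Fcgr1, Fcgr2b, Fcer1g and Tyrobp did not pass the test. Over all genes tested, 21.5% were called higher and 21.6% lower, and 16.6% lay wholly above and 17.5% wholly below the ff range. The 22.2% of members called higher and the 33.3% called lower, counts of 2 and 3 genes, are to be read against those shares. The median log2 difference of the 9 genes was -0.10, against 0.00 over all genes tested. When samples were rescaled to their 75th percentile, higher genes made up 35% of all calls in place of 49.9%, while the median over all genes moved to -0.07.

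**Figure D1:**
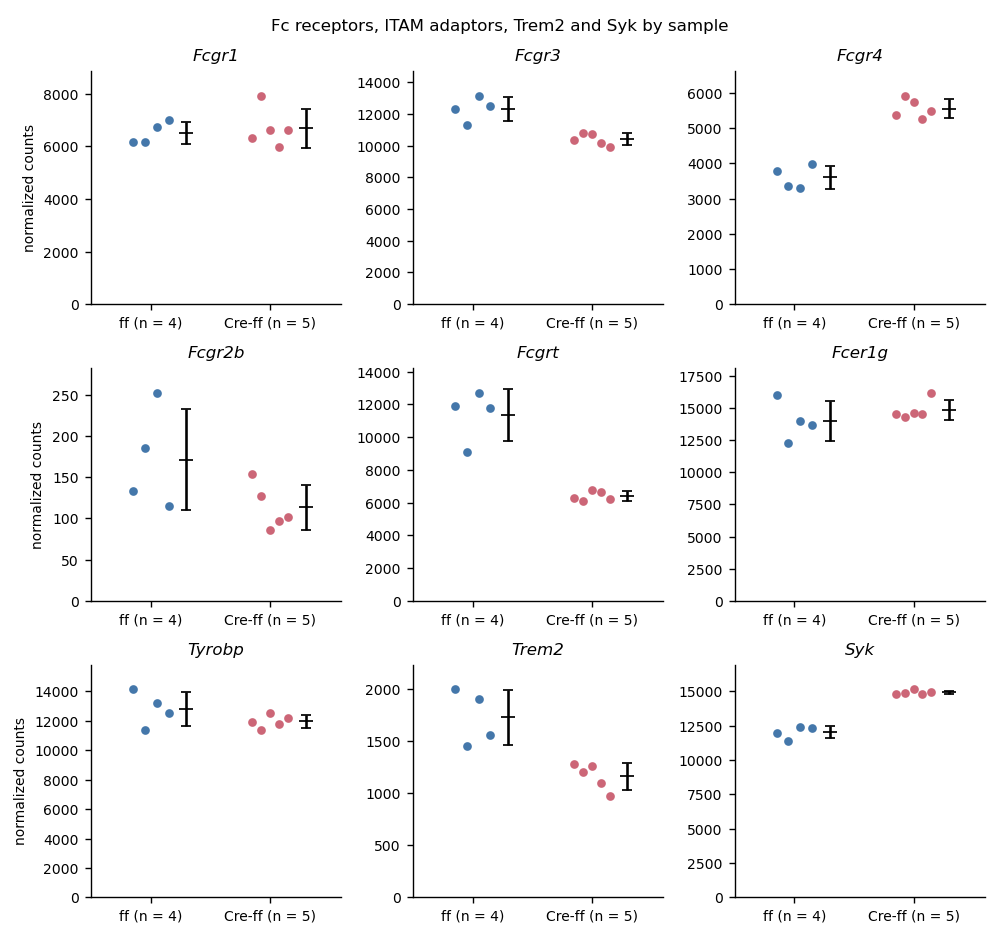
Normalized counts of the 9 genes in each sample (points), with the mean and SD to the right of each group, ff in blue (n = 4) and Cre-ff in red (n = 5), on linear axes from 0. The groups are separate for Fcgr3, Fcgr4, Fcgrt, Trem2 and Syk and overlap for Fcgr1, Fcgr2b, Fcer1g and Tyrobp.

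The activating receptors did not move together. Fcgr4, the receptor for IgG2a and IgG2b, lies on chromosome 1 (GRCm39, chr1:170846466-170857330) and was measured at 5374, 5913, 5753, 5265 and 5496 normalized counts in Cre-ff samples 1 to 5 and at 3774, 3360.1, 3308 and 3987 in ff samples 1 to 4. Every Cre-ff sample exceeded every ff sample, and the Cre-ff mean of 5560.2 ± 268 (SD, n = 5) was 1.54 times the ff mean of 3607 ± 328 (SD, n = 4). The log2 difference was 0.63 ± 0.06 (SE) (limma, adjusted p = 4.31e-05). Fcgr3, the low-affinity activating receptor encoded in the same cluster (chr1:170878738-170893549), went the other way and was found at 10383, 10774, 10743, 10198 and 9894 normalized counts in Cre-ff samples 1 to 5 and at 12326, 11294, 13132 and 12484 in ff samples 1 to 4. The highest Cre-ff value lay below the lowest ff value, but the fall was small, to 0.845 of the ff mean, with a log2 difference of -0.24 ± 0.05 (SE) (limma, adjusted p = 0.00394). Fcgr1, the high-affinity receptor, which lies on chromosome 3 (chr3:96190225-96201338), was measured at 6304, 7919, 6635, 5997 and 6615 normalized counts in Cre-ff samples 1 to 5 and at 6169, 6185, 6738 and 6992 in ff samples 1 to 4. The ranges overlapped, with Cre-ff sample 2 highest and Cre-ff sample 4 lowest of all 9 samples, and the log2 difference of 0.03 ± 0.08 (SE) had a 95% interval from -0.14 to 0.20 (limma, adjusted p = 0.757).

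Fcgr2b, the inhibitory receptor (chr1:170786186-170804177 on chromosome 1), was the scarcest of the 9 transcripts and was read at 154, 127, 85.7, 97.2 and 102 normalized counts in Cre-ff samples 1 to 5 and at 133, 185, 253 and 115 in ff samples 1 to 4. Cre-ff samples 1 and 2 lay within the ff range and ff sample 3 stood highest. The means of 113 ± 27.6 (SD, n = 5) and 172 ± 61.7 (SD, n = 4) gave a log2 difference of -0.56 ± 0.24 (SE), with a 95% interval from -1.08 to -0.03, which missed the threshold after adjustment (limma, unadjusted p = 0.04, adjusted p = 0.0815). Without Cre-ff sample 1 it was called (log2 difference -0.68, limma, adjusted p = 0.0467), as it was without ff sample 4 (-0.72, limma, adjusted p = 0.0335). In the other 19 of 21 alternative settings Fcgr2b was not called. The difference was -0.35 without ff sample 3 (limma, adjusted p = 0.243) and -0.28 after quantile normalization (limma, adjusted p = 0.381). With the column date as a further term in the fit it was -0.84. Fcgr2b is also an abundant receptor of liver sinusoidal endothelium. The 14 endothelial markers all had a row, and their summed normalized counts ran from 6214 to 8446 in Cre-ff and from 10461 to 14599.7 in ff, with 12 of 14 called lower and none higher. The part of these transcripts in the Fcgr2b values was not tested. Sequence shared by the 2 neighbouring genes also limits this count, since Fcgr2b and Fcgr3 share a stretch of 129 identical bases in their coding sequences and 233 of the 852 31-base words of the Fcgr2b coding sequence (27.3%) occur in Fcgr3. Over the whole canonical transcript of Fcgr2b, 233 of 3168 such words (7.35%) occur in Fcgr3. How the authors' counting shared reads between them is not given in the sources used here.

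The balance of each activating receptor against Fcgr2b was taken as the log2 ratio within a sample, with 1 added to both counts, so that rescaling a sample barely moves it. The Fcgr4 to Fcgr2b ratio was 5.11, 5.53, 6.05, 5.75 and 5.73 in Cre-ff samples 1 to 5 and 4.82, 4.17, 3.71 and 5.10 in ff samples 1 to 4. It was higher in all 5 Cre-ff samples than in any ff sample, although the nearest values, of Cre-ff sample 1 and ff sample 4, stood at 5.11 and 5.10. The mean rose from 4.45 ± 0.63 (SD, n = 4) to 5.63 ± 0.35 (SD, n = 5), a 2.27-fold change in the ratio. The two-sided exact permutation test gave p = 0.00794, the smallest that 5 samples against 4 allow, and 0.0238 after Benjamini-Hochberg adjustment over the 3 ratios. The Fcgr1 to Fcgr2b ratio averaged 5.90 ± 0.34 (SD, n = 5) in Cre-ff and 5.31 ± 0.52 (SD, n = 4) in ff (exact permutation p = 0.0794, adjusted p = 0.119). For Fcgr3 to Fcgr2b the means were 6.54 ± 0.34 (SD, n = 5) and 6.22 ± 0.50 (SD, n = 4) (exact permutation p = 0.27, adjusted p = 0.27). Both of these ratios overlapped between the genotypes, and ff samples 1 and 4 lay within the Cre-ff range in each. The spread of Fcgr2b entered all 3 ratios, with a coefficient of variation of 24.3% in Cre-ff and 36% in ff.

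Among the activating receptors alone, scaled per kilobase of the longest coding transcript, Fcgr4 took 35.9% ± 0.442 (SD, n = 5) of the summed level in Cre-ff and 24.5% ± 1.78 (SD, n = 4) in ff. The Fcgr3 share was 43.3% ± 1.28 (SD, n = 5) in Cre-ff and 54% ± 1.73 (SD, n = 4) in ff. Neither share overlapped between the genotypes, whereas the Fcgr1 share ran from 19.7% to 23% in Cre-ff and from 20.3% to 22% in ff. The summed level itself overlapped, at 11524 to 13049 normalized counts per kb in Cre-ff and 10658 to 12053 in ff. Fcgr2b was 0.185% to 0.349% of the 4 Fc gamma receptors per kb in Cre-ff and 0.256% to 0.573% in ff. These summed levels and shares are descriptions with no test, and they depend on the length used. With merged exons as the length, Fcgr4 stood above Fcgr3 in Cre-ff.

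**Figure D2:**
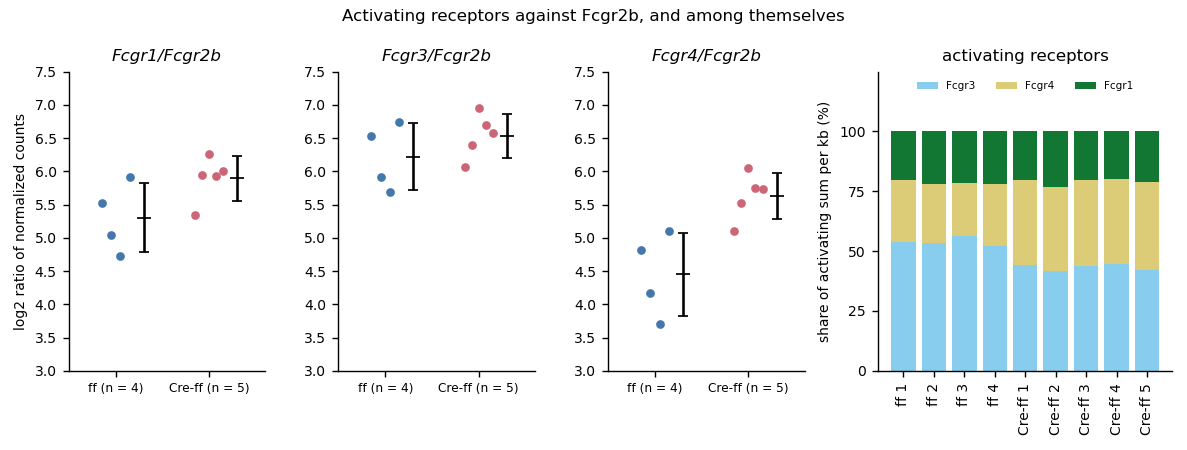
The first 3 panels show the log2 ratio of each activating receptor to Fcgr2b in every sample (points) with mean and SD, on an axis that starts at 3, and the last shows the share of Fcgr3, Fcgr4 and Fcgr1 in their summed level per kb, sample by sample. The Fcgr4 ratio is higher in every Cre-ff sample, and the Fcgr4 share is 35.4% to 36.5% in Cre-ff against 22% to 25.9% in ff.

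The promoters of Fcgr4 and Fcgr1 are shown because both receptors are known as interferon-inducible while only Fcgr4 was called here. They are the 250 bases before the start of the canonical transcript on GRCm39, given 5′ to 3′ on the strand of the gene, with capitals for matches on either strand to the interferon-gamma activated site TTCNNNGAA and to the interferon-response core GAAANNGAA.
Fcgr4 promoter, plus strand, chr1:170846216-170846465: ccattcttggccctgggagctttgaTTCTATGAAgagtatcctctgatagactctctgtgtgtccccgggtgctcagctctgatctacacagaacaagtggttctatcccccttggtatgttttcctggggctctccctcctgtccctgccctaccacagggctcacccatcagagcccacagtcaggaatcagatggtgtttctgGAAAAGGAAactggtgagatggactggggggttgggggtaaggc
Fcgr1 promoter, minus strand, chr3:96201339-96201588: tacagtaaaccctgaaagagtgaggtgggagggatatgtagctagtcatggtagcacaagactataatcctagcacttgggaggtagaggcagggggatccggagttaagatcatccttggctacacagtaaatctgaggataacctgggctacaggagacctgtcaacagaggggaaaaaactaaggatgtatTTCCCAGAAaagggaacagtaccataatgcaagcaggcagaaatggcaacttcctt
The Fcgr4 window held 1 match to each motif, which do not overlap, and the Fcgr1 window held 1 activated site and no response core. Of the 13584 promoters of tested genes, 6.91% held the first motif and 7.36% the second. Among the members the first motif was found in 2 promoters, those printed, and the second in 2, Fcgr4 and Tyrobp. The PU.1 core GAGGAA, the site of a macrophage lineage factor, was found on either strand in the promoters of Fcer1g, Tyrobp, Trem2 and Syk and in 23.4% of all promoters. These matches are letters in a window and were not tied to binding.

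Fcgrt had the largest log2 fall of the 9 genes without the date in the fit. With the date, Trem2 fell by 0.86 and Fcgrt by 0.84, and Fcgr2b, which was not called, also by 0.84. The gene lies on chromosome 7 (chr7:44742412-44756819) and was measured at 6279, 6088, 6787, 6649.5 and 6212 normalized counts in Cre-ff samples 1 to 5 and at 11910.5, 9088, 12717 and 11766 in ff samples 1 to 4. All Cre-ff values lay within a narrow band well below the ff values, of which sample 2 was the lowest. The mean dropped to 0.563 of the control level, from 11370.2 ± 1578 (SD, n = 4) to 6403 ± 299.7 (SD, n = 5), with a log2 difference of -0.82 ± 0.09 (SE) (limma, adjusted p = 4.89e-05). B2m, which encodes the light chain that the Fcgrt product needs to leave the endoplasmic reticulum and that also pairs with class I MHC, moved in the opposite direction. Its normalized counts averaged 50906 ± 1949 (SD, n = 5) in Cre-ff and 31008 ± 2504 (SD, n = 4) in ff, a log2 difference of 0.72 ± 0.06 (SE; limma, adjusted p = 2.02e-05). Fcgrt is expressed in hepatocytes and endothelium as well as in macrophages. All 10 hepatoblast markers were called lower, with summed normalized counts of 35336 to 45643 in Cre-ff and 59516 to 102851 in ff, and their part in the Fcgrt values was not tested.

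The ITAM adaptors had the highest levels per kb of the 9 genes and showed no called difference. Fcer1g (chr1:171057141-171062219 on chromosome 1) stood at 14562, 14309, 14633, 14537 and 16199 normalized counts in Cre-ff samples 1 to 5 and at 16042, 12259, 14035 and 13676 in ff samples 1 to 4. The Cre-ff values all lay inside the ff range except sample 5, which exceeded it, and the log2 difference of 0.09 ± 0.07 (SE) had a 95% interval from -0.07 to 0.25 (limma, adjusted p = 0.345). Tyrobp (chr7:30113170-30117010 on chromosome 7) was measured at 11897, 11397, 12562, 11812 and 12177 normalized counts in Cre-ff samples 1 to 5 and at 14132, 11400.4, 13239 and 12554 in ff samples 1 to 4. The ranges overlapped and the log2 difference was -0.10 ± 0.06 (SE), with a 95% interval from -0.23 to 0.04 (limma, adjusted p = 0.235). The direction held in all 21 alternative settings, and Tyrobp was called lower under 2 scalings, by 75th percentile (-0.18, limma, adjusted p = 0.0471) and by quantiles (-0.19, limma, adjusted p = 0.0227). The noncoding gene Gm71631 overlaps all 5079 bases of Fcer1g on the same strand in GENCODE M39 and had no row in the table.

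Trem2, the receptor that signals through Tyrobp, is encoded on chromosome 17 (chr17:48653429-48661175) and fell. It was found at 1286, 1200.5, 1264, 1096 and 972 normalized counts in Cre-ff samples 1 to 5 and at 1999, 1452, 1908 and 1560.4 in ff samples 1 to 4. No Cre-ff value reached the ff range, and the Cre-ff mean of 1164 ± 130.0 (SD, n = 5) was 0.673 of the ff mean of 1729.7 ± 265 (SD, n = 4). The log2 difference was -0.57 ± 0.11 (SE) (limma, adjusted p = 0.00194). The level of Tyrobp per kb over that of Trem2 was 17.4 to 23.5 in Cre-ff and 13 to 15.1 in ff, and these ranges did not overlap. Cre-ff sample 5, the only Cre-ff sample of the first date, had the lowest Trem2 value.

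Syk, the kinase that both adaptors recruit (chr13:52736696-52802828 on chromosome 13), rose and was read at 14788, 14873, 15136, 14833 and 14972 normalized counts in Cre-ff samples 1 to 5 and at 11960.0, 11412, 12367 and 12352 in ff samples 1 to 4. The coefficient of variation was 0.926% among the Cre-ff samples and 3.73% among the ff samples, the lowest in each group of the 9 genes. The Cre-ff mean was 1.24 times the ff mean, and the log2 difference was 0.31 ± 0.04 (SE) (limma, adjusted p = 0.000227).

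**Figure D3:**
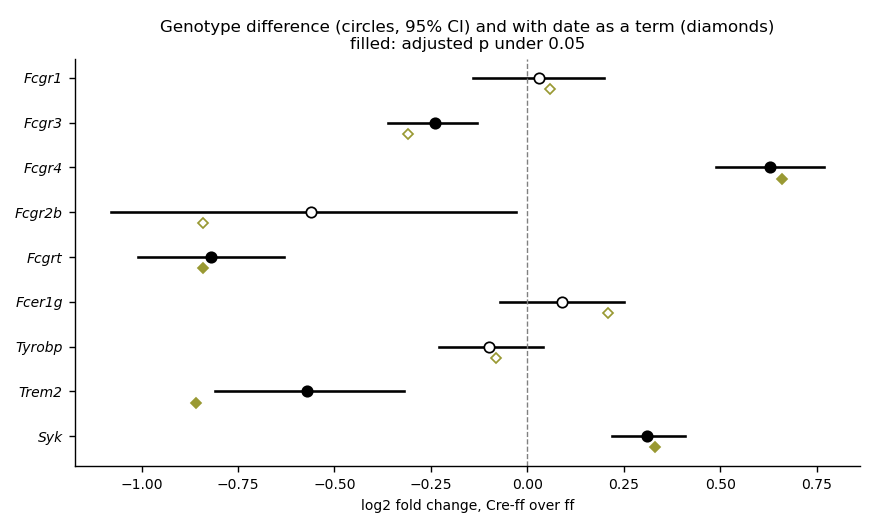
Log2 fold change of each gene, Cre-ff over ff, from limma (circles, with 95% intervals) and with the column date as a further term (diamonds), filled where the adjusted p was under 0.05. Fcgr4 and Syk lie above 0, and Fcgrt, Trem2 and Fcgr3 below it, in both fits, and Fcgr3 is open in the second.

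With the date as a term, a fit in which the genotype difference rests on Cre-ff sample 5 against ff samples 1 to 3, 4 of these 5 genes stayed past the threshold. The share of all genes called was then 4.24% higher and 4.54% lower. Fcgr4 differed by 0.66 ± 0.10 (limma, adjusted p = 0.00565) and Syk by 0.33 ± 0.08 (limma, adjusted p = 0.0277). Trem2 differed by -0.86 ± 0.17 (limma, adjusted p = 0.0146), more than without the term, and Fcgrt by -0.84 ± 0.16 (limma, adjusted p = 0.0126). Fcgr3 kept its direction at -0.31 ± 0.09 and lost the call (limma, adjusted p = 0.068). The genotype difference of this fit has 1 sample on the Cre-ff side, which is assumed to vary like the samples of the other groups, mainly Cre-ff samples 1 to 4 and ff samples 1 to 3, that supply the spread.

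**Figure D4:**
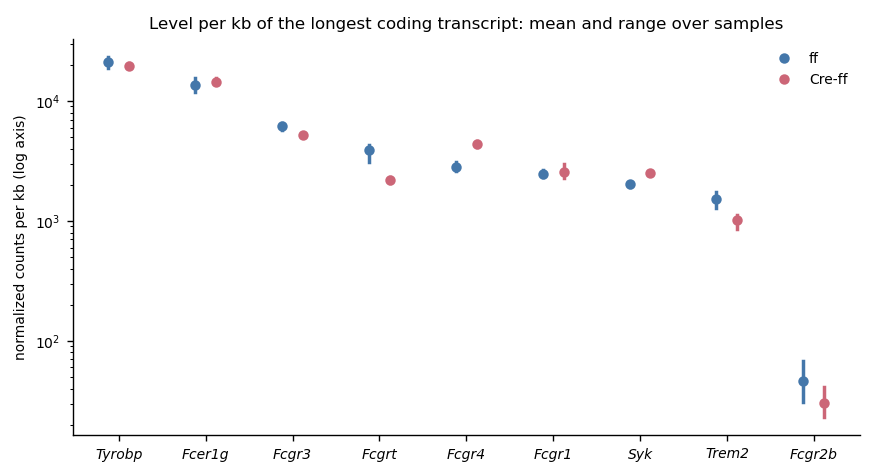
Level of each gene per kb of its longest coding transcript, as mean (points) and range over samples (lines), ff in blue and Cre-ff in red, on a log axis. Tyrobp and Fcer1g are highest and Fcgr2b lowest in both genotypes. Fcgrt lies above Fcgr4 in ff and below it in Cre-ff.

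Levels of the members were compared with each other per kilobase of the longest coding transcript. In ff samples the order of mean levels was Tyrobp (21070 ± 1892 normalized counts per kb, SD, n = 4), Fcer1g, Fcgr3, Fcgrt, Fcgr4, Fcgr1, Syk, Trem2 and Fcgr2b (46.0 ± 16.6). Neighbours in this order overlapped in range for Fcgrt with Fcgr4 and for Fcgr4 with Fcgr1, and the other neighbours did not overlap. In Cre-ff samples Fcgr4, Fcgr1 and Syk stood above Fcgrt, which moved down from place 4 to place 7. There the ranges of Fcgr1 and Syk overlapped, as did those of Fcgr1 and Fcgrt, and Fcgr4 at 4117 to 4623 normalized counts per kb lay wholly above Fcgrt at 2076 to 2315. In ff the same levels were 2586 to 3118 for Fcgr4 and 3099 to 4337 for Fcgrt. With the merged exons or the mean coding transcript as the length, Tyrobp and Fcer1g remained the first pair and Trem2 and Fcgr2b the last in both genotypes, while the places between them shifted, and with merged exons Fcgr4 stood above Fcgrt in ff too. The Fcer1g level was 1.06 to 1.33 times the summed level of the 3 activating receptors that use it in Cre-ff and 1.1 to 1.35 times in ff.

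The other genes of Fc receptor and ITAM signalling were counted in 5 lists, with 109 genes that had a row, all tested. Of these, 54 (49.5%) were called higher and 19 (17.4%) lower in Cre-ff, against 21.5% and 21.6% of all genes, and their median log2 difference was 0.20 against 0.00. The lists were chosen with earlier results of these data known, so the contrast with all genes is a description and not a test. With the date as a term the counts were 27 and 5, against 4.24% and 4.54% of all genes, and rescaling to the 75th percentile gave 44 and 21. The genes named below as the largest rises and falls are those with a mean of 50 or more normalized counts and no overlap between the genotypes.

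Of 14 other Fc and immunoglobulin receptors and partners, 6 had a row, with 4 called higher, 1 lower and a median log2 difference of 0.41. Fcrl5, an Fc receptor-like protein known from B cells, rose from 21.0 ± 7.2 (SD, n = 4) to 123.9 ± 26.8 (SD, n = 5) normalized counts, a log2 difference of 2.53 ± 0.24 (SE; limma, adjusted p = 2.90e-05). Fcrl1 of the same family rose by 0.60 ± 0.07 on the log2 scale (limma, adjusted p = 6.13e-05). Of 6 B cell markers with a row, 5 were called lower and Cd79b higher, and their sum was 1747 to 2097 in Cre-ff and 1587 to 2497 in ff. The fourth riser, Trim21, is a cytosolic antibody receptor (0.21 ± 0.07, limma, adjusted p = 0.0384, which rose to 0.24 once the date was included), and the only faller was Ms4a2, the beta chain of the IgE receptor and a mast cell marker, at no more than 37.4 normalized counts in any sample (-1.13 ± 0.39, limma, adjusted p = 0.0362). The last 2 genes were named after their values were seen.

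Of 30 genes listed as ITAM-coupled receptors, 28 had a row, 14 were called higher and 7 lower, and the median was 0.29. The list is broader than its name, since it also holds Hcst, an adaptor without an ITAM, and Treml1, which carries an ITIM. Both were called lower and were named after their values were seen. The largest rises were those of Sirpb1a (1.76 ± 0.21, limma, adjusted p = 0.000105), Sirpb1b (1.72 ± 0.14, limma, adjusted p = 1.26e-05) and Sirpb1c (1.66 ± 0.18, limma, adjusted p = 4.96e-05), which encode Tyrobp-coupled relatives of SIRPα and are close copies of each other, so that their separate counts are uncertain. The largest falls were those of Clec9a (-2.56 ± 0.38, limma, adjusted p = 0.000339), Clec1b (-2.43 ± 0.24, limma, adjusted p = 3.78e-05) and Clec5a (-1.25 ± 0.23, limma, adjusted p = 0.00158). With the date as a term Clec1b was still called (-1.96, limma, adjusted p = 0.0201), whereas Clec9a (-1.24, limma, adjusted p = 0.126) and Clec5a (-1.05, limma, adjusted p = 0.0769) were not, and the list held 7 higher and 2 lower. Clec9a and Clec1b signal through a single-tyrosine form of the motif, and Clec5a through Tyrobp. Clec1b, a receptor of platelets and Kupffer cells, averaged 4822 ± 819 (SD, n = 4) normalized counts in ff and 933.4 ± 299.6 (SD, n = 5) in Cre-ff. The 8 megakaryocyte markers, of which 5 were called lower, summed to 758 to 1120 in Cre-ff and 2327 to 2819 in ff, and their part in the Clec1b values was not tested.

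Of 38 kinases and adaptors that act after the ITAM, 37 had a row, 16 were called higher and 4 lower, and the median was 0.13. Fgr, a Src-family kinase, rose by 0.80 ± 0.08 (limma, adjusted p = 4.45e-05), Vav3, an exchange factor for small GTPases, by 0.66 ± 0.08 (limma, adjusted p = 0.000135) and Prkcd, a protein kinase C, by 0.59 ± 0.05 (limma, adjusted p = 2.59e-05). Src fell by 1.57 on the log2 scale (limma, adjusted p = 0.000307) from a low level of 131 ± 29.3 (SD, n = 4) to 44.1 ± 13.2 (SD, n = 5), and Fyn fell by 0.30 (limma, adjusted p = 0.00274). The other 2 genes called lower were Lck and Tec. Adding the date as a term left 6 genes of the list called higher, and Src (-0.99, limma, adjusted p = 0.0966), Fyn (-0.24, limma, adjusted p = 0.185) and Vav3 (0.48, limma, adjusted p = 0.052) were not called. Lyn, an abundant Src-family kinase of the list that was named after its values were seen, rose by 0.31 ± 0.04 (limma, adjusted p = 0.000232).

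Inhibitory genes of the pathway were also among those called higher. Of 19 ITIM receptors 9 were called higher and 6 lower, with a median of 0.22. Lilrb4a (1.34 ± 0.15, limma, adjusted p = 6.54e-05), its close copy Lilrb4b (1.13 ± 0.12, limma, adjusted p = 4.52e-05) and Cd300lf (0.95 ± 0.07, limma, adjusted p = 9.16e-06) rose most. Cd22 (-1.43 ± 0.21, limma, adjusted p = 0.000315), Cd200r1 (-0.69 ± 0.08, limma, adjusted p = 6.54e-05) and Cd33 (-0.69 ± 0.11, limma, adjusted p = 0.00065) were the largest falls without overlap, while Siglecg fell by 1.02 with overlapping groups (limma, adjusted p = 0.0166). Cd200r1 is known to inhibit through a tail without an ITIM. With the date as a term 7 receptors were called higher and 1 lower, and Cd22 (-0.97, limma, adjusted p = 0.1) and Cd33 (-0.53, limma, adjusted p = 0.0841) were not called.

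Of 19 phosphatases and adaptors that restrain ITAM signals, 11 were called higher and 1 lower, with a median of 0.32. Sh2d1b1 (1.66 ± 0.15, limma, adjusted p = 2.50e-05), Ptprc (0.85 ± 0.09, limma, adjusted p = 4.04e-05) and Dok2 (0.78 ± 0.07, limma, adjusted p = 2.04e-05) rose most, and Ubash3a (-1.62 ± 0.22, limma, adjusted p = 0.000191) was the gene that fell. Not all of these act only as brakes, since Sh2d1b1 is an adaptor of SLAM-family receptors and Ptprc, the CD45 antigen used in the sort, also removes the inhibitory phosphate of Src-family kinases. The enzymes that Fcgr2b is known to recruit, named after their values were seen, rose as well: Inpp5d, the lipid phosphatase SHIP1, by 0.36 ± 0.06 (limma, adjusted p = 0.00103) and Ptpn6, the tyrosine phosphatase SHP-1, by 0.38 ± 0.05 (limma, adjusted p = 0.000202). When the date was a term the list held 4 higher and 1 lower, Ptpn6 was called (0.34, limma, adjusted p = 0.0345) and Inpp5d was not (0.28, limma, adjusted p = 0.138).

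**Figure D5:**
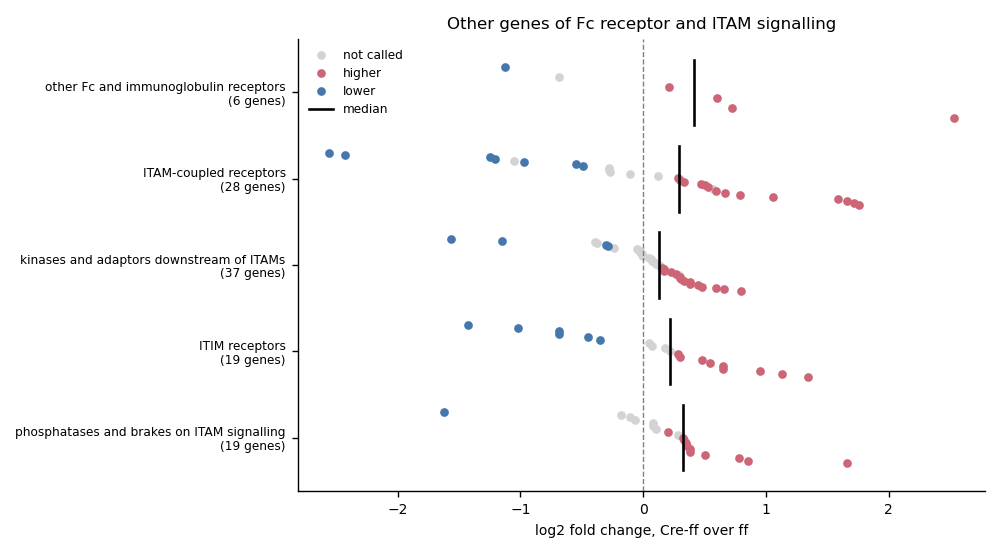
Log2 fold change, Cre-ff over ff, of every tested gene of the 5 lists (points), red where called higher, blue where called lower and grey otherwise, with the median of each list as a bar. The medians lie between 0.13 and 0.41, and every list has genes on both sides of 0.

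Markers of other cells that the sort could hold moved with the genotype and are given beside the results above. The macrophage list summed to 342089 to 394488 normalized counts in Cre-ff and 418481 to 562435 in ff, with 1 of 14 genes called higher and 8 lower, and Cd5l had the highest normalized count over all samples, although Csf1r exceeded it in Cre-ff. Such counts are not scaled by length, here and for the other marker lists. The 10 monocyte markers, 2 higher and 4 lower with Plac8 highest, summed to 10809 to 14219 in Cre-ff and 8990 to 12155 in ff and overlapped. The 10 neutrophil and granulocyte progenitor markers, cells that express Fcgr3 and Fcgr4 in adults, summed to 4992 to 18335 in Cre-ff and 8780 to 54370.0 in ff, with 3 lower and S100a9 highest over all samples, although Mpo slightly exceeded it in ff. The 5 mast cell and basophil markers with a row, out of 9, summed to 261 to 341 and 643 to 1171, with 4 lower and Kit highest. The 2 NK cell markers with a row, out of 8, were both lower and stayed under 152 in sum in every sample, with Nkg7 highest. The 11 erythroid markers with a row were all lower, with sums of 90276 to 302376 and 395644 to 635459 and Hba-a1 highest. Stab2, Trf, Pf4 and Cd79b led the endothelial, hepatoblast, megakaryocyte and B cell lists. No listed marker with a row was at 0 in all samples, and the 13 markers without a row, such as Fcer1a, Ncr1 and Ms4a1, were not analysed here. The part of these cells in the member values was not tested.

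The genes whose values followed each member most closely over the 9 samples were listed by Pearson's r of the log2 values, as a description that mostly reflects the genotype step they share. For Fcgr4 they were Gbp2, an interferon-inducible GTPase (r = 0.991), Uso1 (0.991) and Pdia4 (0.989). For Fcgrt they were Selenop, the plasma selenium carrier (r = 0.998), and Tmem37 (0.994). Trem2 was followed by Abhd14b (r = 0.981), As3mt (0.977) and Gimap1 (0.966), and Fcgr3 by the lysosomal enzyme Sgsh (r = 0.984), the prion protein gene Prnp (0.973) and Tcaf1 (0.963). Syk was followed by the receptor genes Treml4 (r = 0.987) and Trem4 (0.986) and by Nrros (0.983), and Fcgr2b by Xpc (r = 0.934), the endothelial receptor gene Flt1 (0.926) and Palm (0.914). For the genes without a called difference the closest were Ap5b1 for Fcgr1 (r = 0.866), Psen2 for Fcer1g (r = 0.928) and Capns1 for Tyrobp (r = 0.981), with Gm14150 (0.849) next for Fcgr1, Tmem229a (0.914) and Lypla2 (0.912) for Fcer1g, and Rab40c (0.956) and Ly86 (0.953) for Tyrobp.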

How the data were processed

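Libraries of 9 samples were made by the submitters from 45 ng of total RNA with a stranded poly(A) kit. Per the study's methods, the authors checked reads with FastQC, quantified them with salmon against a GRCm39 index, annotated transcripts with AnnotationHub, imported them with tximport and normalized them with DESeq2. Versions, the strand setting and the filter on low genes are not given in the sources used here. The deposited table holds 1 signal value per gene and sample, a normalized count that is not whole, so the depth of each library is unknown, no counting interval is given and no count test was run.

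Of 13708 Ensembl identifiers, 13698 matched a GENCODE M39 gene. Values were taken as log2(normalized count + 1), genes that reached 10 normalized counts in 4 or more samples were kept, and the genotypes were compared with limma 3.58.1 in R 4.3.3 (eBayes with trend), with Benjamini-Hochberg adjustment over all 13594 genes and a threshold of 0.05. Fold changes on this scale understate those of scarce genes. The model was also run on simulated data, with normal noise drawn separately for each gene and no effect of date. That run therefore cannot show how the dates bear on the calls. Ratios were compared by two-sided exact permutation over the samples, and levels, sequences and motifs were read with Python 3 scripts and Biopython from GENCODE M39 and GRCm39, the build the study used. Nothing in the labels says that samples came from separate embryos or litters, so the p-values measure the spread between these samples.

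The 9 genes, 5 pathway lists and 10 marker lists were chosen with earlier results of these data known. Named besides the members and Xpr1 were, in each pathway list, up to 3 largest rises and falls among called genes whose mean reached 50 normalized counts and that had no overlap between genotypes, in each marker list the gene with the highest mean normalized count, and for each member the 3 genes most like it, some of which are not reported here. Other genes are marked in the text as named after their values were seen, except Adgre1 and Cd79b, which were named to describe the sort and a marker list, Lck, Tec, Siglecg, Csf1r and Mpo, and the examples of markers without a row. Alternatives were other pseudocounts (0.5 and 10), no filter or a minimum of 50, 75th percentile scaling, quantile normalization, limma without trend, with robust estimation or with array weights, a replicate block, the date as a term, the shared date alone, and leaving out each sample.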

Additional observations from a re-analysis of the deposited data

Results flagged for a closer look

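In each genotype, a sample was singled out where its gap to the nearest other sample, over the range of the group, passed Dixon's 95% value. Of 74 groups examined, 4 were singled out, where chance alone gives about 3.7. Fcer1g stood at 16199 normalized counts in Cre-ff sample 5, against 14309 to 14633 in the other Cre-ff samples. Sh2d1b1 was also highest in Cre-ff sample 5, at 685.5 against 547.5 to 572.3. Sirpb1c reached 455.9 in Cre-ff sample 3, where the others lay between 383.6 and 393.4. Clec1b was at 3605 in ff sample 2, below the 5096 to 5363 of the other ff samples. Cre-ff sample 5 is the only Cre-ff sample of the first date, and the part of the date in these values was not tested.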

How the results depend on the processing

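Over 21 alternative settings, Fcgr4, Fcgrt and Trem2 kept their direction and their call and Fcer1g stayed without one. Fcgr1, which was not called, changed sign after 75th percentile scaling (-0.05), quantile normalization (-0.08) and without Cre-ff sample 2 (-0.03, in a range of -0.03 to 0.07 without each sample in turn). On the shared date alone, with 1 Cre-ff sample, 1 member was called higher, since Syk lost its call (limma, adjusted p = 0.15), 2 were called lower, since Fcgr3 lost its own (limma, adjusted p = 0.216), and the pathway lists held 18 genes called higher and 3 lower. With the date as a term the lists held 27 and 5. Without each sample in turn, the lists held 49 to 55 genes called higher and 12 to 19 lower, with 12 lower without ff sample 3. The Fcgr1 to Fcgr2b difference was 0.40 to 0.79 without each sample in turn, and passed the threshold without Cre-ff sample 1 (0.73, exact permutation, adjusted p = 0.0429). The Fcgr4 to Fcgr2b difference was 0.94 to 1.40, with adjusted p from 0.0429 to 0.0857 in the exact permutation test. It stayed past the threshold without Cre-ff sample 1 and missed it without any other sample, where 0.0857 (4 against 4) and 0.0536 (5 against 3) were the smallest adjusted p that 1 separated ratio can reach. Same-numbered samples of the 2 genotypes never shared a date, so the numbers pair no samples. They did not deviate together either (r = -0.0333, 0.147, -0.0113 and -0.0313 for numbers 1 to 4), and ff sample 2 was the closest to 3 of the 4 Cre-ff samples. A replicate block therefore groups samples by arbitrary numbers and cannot check a pairing. With it, members were called 2 higher and 3 lower and the pathway lists 54 and 19, while the Fcgr4 to Fcgr2b difference over 4 such pairs was 1.16 (exact permutation, p = 0.125, the smallest that 4 pairs allow, adjusted p = 0.375). Sequencing depth, which would set the counting error of scarce genes such as Fcgr2b, is unknown from these values.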
